A study of Arabis alpina with 19 samples.

Results

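The transcripts described here were abundant in older perennial stem and in the short internode of the annual zone, and low in young stem and close to the inflorescence. They were chosen from measured TPM, an abundance scaled by transcript length and library depth. Group means were put on the log2(mean + 1) scale and sorted, and a target belonged if the widest gap between neighbouring groups was at least 1, if III_PZ, IV_PZ and IV_AZ_si were exactly the groups above it, and if each of these had a mean of at least 5 TPM. Of the 30158 targets in the series table, 168 met this rule, and the 150 with the widest gaps are the members.

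RNA-seq was done on 19 libraries from lateral stems of the perennial crucifer Arabis alpina, with 12 plants behind each library. Every group carried the pep1-1 (perpetual flowering 1-1) allele, so no group here shows the wild type. From the perennial zone (PZ), whole first internodes were taken in 3 libraries each: I_PZ came from plants aged 4 weeks, II_PZ from plants aged 5 weeks, III_PZ from plants aged 7 weeks and IV_PZ from plants aged 30 weeks. From the annual zone (AZ), 4 libraries of short internodes (IV_AZ_si) and 3 of internodes next to the inflorescence (IV_AZ_if) were made, both from plants aged 30 weeks. III_PZ, IV_PZ and IV_AZ_si are called the high groups below, and I_PZ, II_PZ and IV_AZ_if the low groups. I_PZ replicate 3 stood apart from its group mates, with values given below, and neither the rule nor the main tests used it. Total estimated counts ran from 21032804 to 27999020 per library.

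As background, the perennial zone of Arabis alpina is the basal part of a flowering shoot that survives after seed set, whereas the annual zone above it dies. The perennial zone thickens by secondary growth, in which the vascular cambium adds wood and secondary phloem and an outer cork layer forms, and its parenchyma stores starch and lipids. PEP1, the Arabis orthologue of the Arabidopsis floral repressor FLC, holds back flowering until a period of cold. The files used here name targets by identifier alone, without gene names, Arabidopsis loci, sequences or genome positions, so no role is assigned to any member. Whole internodes were sampled, so more cells of a type and more RNA per cell cannot be told apart.

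The members were less abundant in the low groups than in the high groups, but few were absent from them. The rule itself set the contrast between high and low groups, so these levels are a description with no test. Of the 150 members, 2 had no count in any of the 8 low-side libraries (those of the low groups without I_PZ replicate 3), and 118 had a count in every one of them. Only 8 members had a mean under 1 TPM in all low groups, 81 reached a mean of 5 TPM in at least one, and 49 reached 10 TPM. The highest means were 129 TPM in I_PZ, 153 TPM in II_PZ and 186 TPM in IV_AZ_if, all of Aa_G96530.h1. The median member had a mean of 2.69 TPM in I_PZ, 3.73 TPM in II_PZ and 5.34 TPM in IV_AZ_if. In the high groups the median was 31.2 TPM in III_PZ, 36.0 TPM in IV_PZ and 20.8 TPM in IV_AZ_si. The members thus ranged from silent to abundant in young stem, and "low" describes the list better than "absent". In 132 of the 150, every high-side library was above every low-side library in CPM (counts scaled to the library total), as were 13.3% of the 23904 targets tested, which the rule fixed and which therefore supports nothing.

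**Figure D1:**
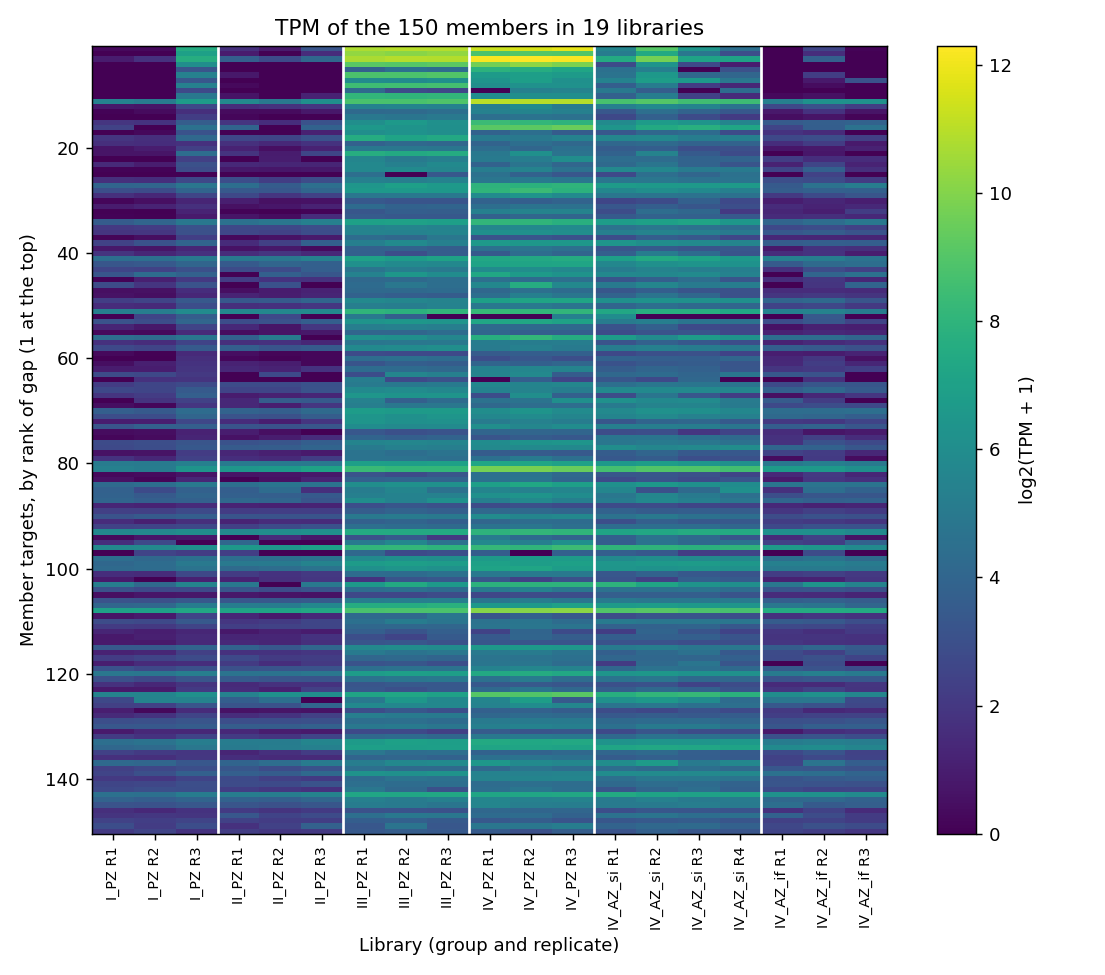
Heat map of log2(TPM + 1) for the 150 members, 1 line each in order of the width of the gap, in all 19 libraries, with white lines between groups. The 10 libraries of III_PZ, IV_PZ and IV_AZ_si are brighter than the 8 low-side libraries in most members, 132 of which separate fully in CPM, and I_PZ replicate 3 is brighter than replicates 1 and 2.

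Most gaps were modest. The gap had a median of 1.48 on the log2(mean + 1) scale, with quartiles of 1.23 and 1.86; 28 members had a gap of at least 2, 10 of at least 3, and the widest was 5.14. The 5 most abundant members held 40.7% to 42.6% of the summed TPM in III_PZ libraries, 51.3% to 54.3% in IV_PZ libraries and 26.2% to 31.4% in IV_AZ_si libraries. With the same settings, 196 targets had III_PZ and IV_PZ alone above the widest gap, 28 had IV_PZ and IV_AZ_si, and 24 had III_PZ and IV_AZ_si.

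The summed TPM of all 150 members was 14012, 14503 and 14429 in the III_PZ libraries and 21907, 23720.0 and 23050.3 in the IV_PZ libraries. In IV_AZ_si it was 6892, 9383, 6996 and 5883. The order was therefore IV_PZ, III_PZ and IV_AZ_si, with no overlap between these 3 groups. The low groups held 1119 and 1147 in I_PZ replicates 1 and 2, 1452, 1465 and 1811 in II_PZ, and 1759.6, 2046 and 1641 in IV_AZ_if. II_PZ and IV_AZ_if overlapped, and I_PZ lay below both. Among the high-side libraries, IV_AZ_si replicate 2 stood above its 3 group mates.

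**Figure D2:**
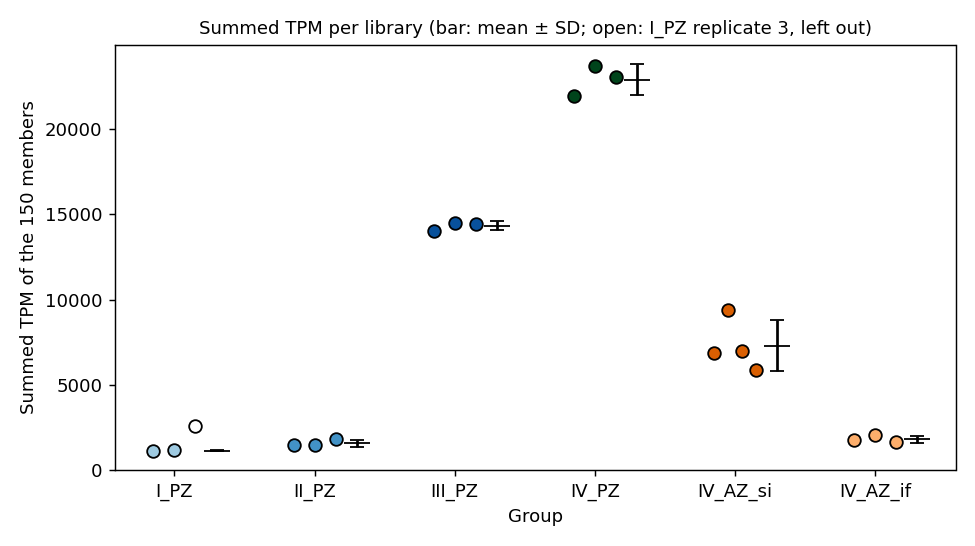
Summed TPM of the 150 members in each library (points), with the mean and SD of each group (bars, I_PZ from replicates 1 and 2); the open point is I_PZ replicate 3. IV_PZ holds 22893 ± 917, III_PZ 14315 ± 265 and IV_AZ_si 7289 ± 1484, and I_PZ replicate 3, the highest library of the low groups, holds 2589.

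Aa_G412970.h1 had the highest mean over the high groups. It had 1689, 1975 and 1864 TPM in III_PZ and 4683, 5029.5 and 4791 TPM in IV_PZ. Its IV_AZ_si libraries held 179, 857, 140.4 and 133 TPM. In I_PZ replicates 1 and 2 it had 0.892 and 2.41 TPM, and in II_PZ 12.4, 5.90 and 16.4 TPM. Its IV_AZ_if libraries held 0, 12.3 and 0 TPM. Every library of the high groups was above those 8 low-side libraries, though 3 of the IV_AZ_si libraries were below I_PZ replicate 3 (204 TPM), and in IV_AZ_if all 140 counts were in replicate 2.

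Aa_G412940.h1, with the widest gap, followed the same course at 1748, 2015 and 1962 TPM in III_PZ and 2555, 2963 and 3708 TPM in IV_PZ. In IV_AZ_si it had 46.0, 524, 87.1 and 21.4 TPM. Its low-side libraries ran from 0 TPM in IV_AZ_if replicate 1 to 8.35 TPM in II_PZ replicate 3. Both of these targets share reads with other targets, meaning that kallisto, the quantifier, split reads among similar sequences, so their levels are uncertain to that extent. Aa_G415500.h1, second in the width of its gap and with whole-number counts, differed in being highest at 7 weeks. It had 1253, 1089 and 1245 TPM in III_PZ and 442, 539 and 510.1 TPM in IV_PZ. In IV_AZ_si it had 35.4, 178, 28.6 and 6.74 TPM, and it was at or under 2.04 TPM in all 8 low-side libraries. By their group means, targets with the widest gaps thus took different courses after 7 weeks. In the tests described below, though, neither rise from III_PZ to IV_PZ reached an adjusted p under 0.05. The log2 fold change was 1.45 ± 0.72 (SE; adjusted p = 0.0979, edgeR) for Aa_G412970.h1 and 0.75 ± 0.82 (SE; adjusted p = 0.461, edgeR) for Aa_G412940.h1. In all of these targets IV_AZ_si replicate 2 was the highest library of its group. Without that library none of them met the rule.

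**Figure D3:**
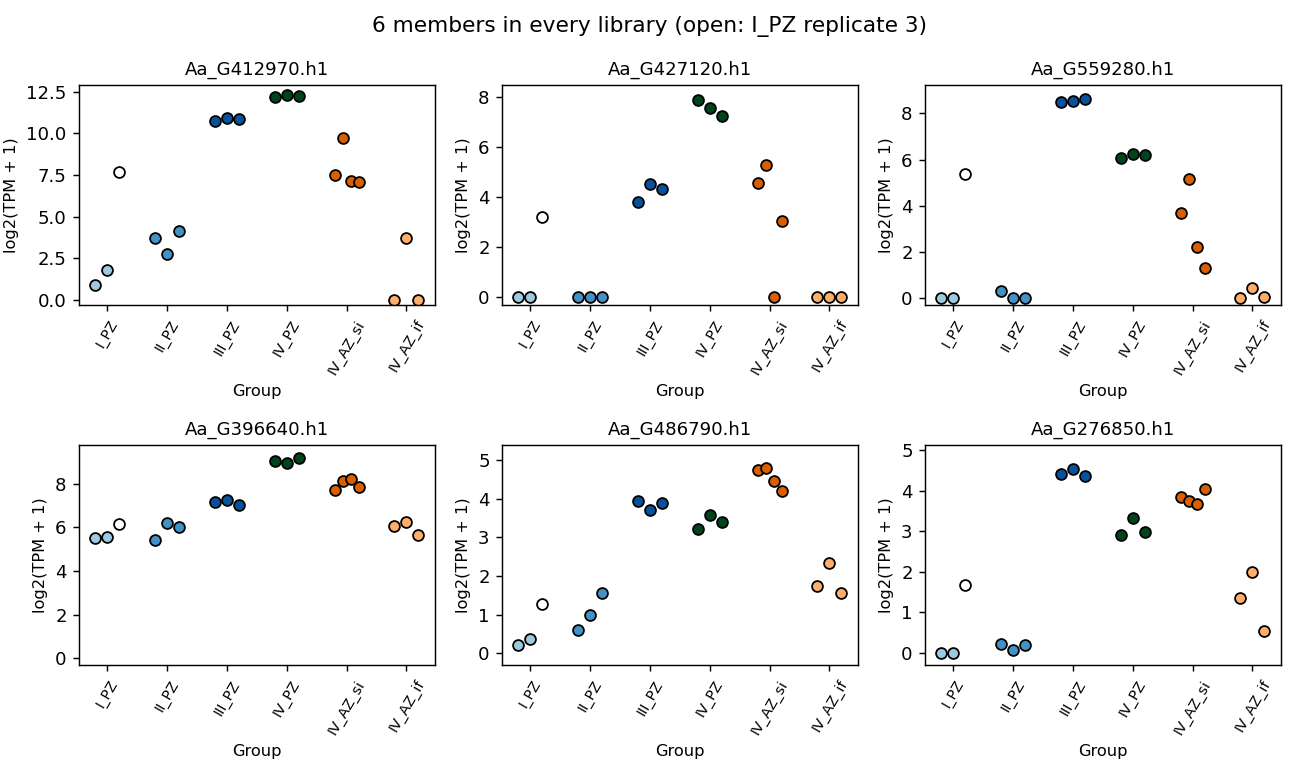
TPM of 6 members in every library on the log2(TPM + 1) scale; the open point is I_PZ replicate 3. Aa_G412970.h1, Aa_G427120.h1 and Aa_G396640.h1 are highest in IV_PZ, Aa_G559280.h1 and Aa_G276850.h1 in III_PZ, and Aa_G486790.h1 in IV_AZ_si.

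The rule limited how far the high groups could lie apart, but not which of them was highest, and this could be tested. The 3 comparisons among high groups and the 3 among low groups used edgeR's quasi-likelihood test on all 23904 targets that passed the filter on low counts, with Benjamini-Hochberg adjustment over all of them and a call at an adjusted p under 0.05. Of the members, 145 passed the filter. The other 5 were targets of 105 to 192 bases with 29 to 56 counts over the 18 libraries fitted. They and Aa_G427120.h1 were the 6 members with a high-side library at no count, and all 6 were shorter than 200 bases. The p-values measure the spread between samples the labels call biological replicates. Where members called in another fit are counted below, the number called over all targets in that fit is given only for DESeq2. That number moves with the fit. The other such counts therefore show how the calls depend on the setting, and cannot be set against the edgeR background. Comparisons below that share a group share its libraries. Targets named for a comparison were picked from members called in it whose libraries did not overlap in CPM between the 2 groups. Where those 2 groups are said not to overlap or to be apart, this choice fixed it, and it supports nothing.

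Between 7 and 30 weeks more of these transcripts rose than fell in the perennial zone. Of the 145 tested members, 61 rose and 21 fell from III_PZ to IV_PZ, and 63 were not called. Over all tested targets, 55% were called, with 25% higher and 30% lower, so the share of members called was near the background. The median log2 fold change was 0.50 over the members, against -0.01 over all tested targets. Of those called, 28 members rose and 13 fell at least 2-fold, against 1690 and 4228 of the 23904 tested targets. With I_PZ replicate 3 in the fit, 57 rose and 10 fell.

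The steepest rise to 30 weeks was that of Aa_G427120.h1, a short target of 138 bases. It had 13.2, 22.1 and 19.3 TPM in III_PZ and 236, 192 and 150.2 TPM in IV_PZ. The groups did not overlap, but these levels rested on 13 and 156 counts (log2 fold change 3.42 ± 0.86, SE; adjusted p = 0.00482, edgeR). It had no count in any of the 8 low-side libraries and none in IV_AZ_si replicate 3. Aa_G570110.h2, of 129 bases, had 91.8, 77.9 and 68.0 TPM in III_PZ and 569.7, 582 and 714 TPM in IV_PZ, again without overlap (log2 fold change 3.02 ± 0.48, SE; adjusted p = 4.19e-05, edgeR). Both calls were lost in limma-trend on log2(TPM + 0.1), with adjusted p = 0.0683 and 0.133; the 16 alternatives of each gave an adjusted p of 0.000212 to 0.0683 and of 4.1e-11 to 0.133.

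Other members were at their peak at 7 weeks. Aa_G559280.h1 went from 359, 368 and 393 TPM in III_PZ to 65.6, 74.5 and 73.4 TPM in IV_PZ, and held 11.8, 35.2, 3.60 and 1.48 TPM in IV_AZ_si. All 3 groups were apart, with III_PZ on top and the annual internode lowest. Its log2 fold change from III_PZ to IV_PZ was -2.34 ± 0.68 (SE; adjusted p = 0.00806, edgeR), and with all 19 libraries the call was lost, at adjusted p = 0.109 (4.09e-08 to 0.109 in its 15 alternatives). Aa_G586610.h1 went from 192, 139.5 and 169 TPM to 32.5, 30.8 and 42.2 TPM, without overlap (log2 fold change -2.19 ± 0.20, SE; adjusted p = 1.03e-07, edgeR). In IV_AZ_si it held 48.9, 52.6, 36.1 and 39.2 TPM, a range that overlapped that of IV_PZ.

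At 30 weeks most members that differed between zones were higher in the perennial zone than in the short annual internode. Of the 145 tested, 83 were higher in IV_PZ than in IV_AZ_si, 4 were lower and 58 were not called. Among all tested targets 56.5% were called, 25.8% higher and 30.7% lower. The median log2 fold change was 0.82 over the members and -0.03 over all tested targets. Of those called, 51 members were higher and 1 lower at least 2-fold, against 1827 and 3890 of the 23904 tested targets. With only the groups compared in the fit, 94 were higher and 7 lower.

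The level of Aa_G731640.h1, a target that shares reads, was 809.9, 1187 and 947 TPM in IV_PZ and 5.70, 81.2, 5.57 and 1.00 TPM in IV_AZ_si. The zones did not overlap, and the log2 fold change was 5.44 ± 0.99 (SE; adjusted p = 0.000517, edgeR), or 7.98 without IV_AZ_si replicate 2. For Aa_G412940.h1, whose levels are given above, it was 4.23 ± 0.83 (SE; adjusted p = 0.000326, edgeR), or 5.95 without that library. In both, replicate 2 was the annual library nearest to IV_PZ.

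The 4 members lower in the perennial zone differed less. They included Aa_G276850.h1 (log2 fold change -0.79) and Aa_G363510.h1 (-0.89), named here after their values were seen. Aa_G486790.h1 had 8.35, 11.1 and 9.59 TPM in IV_PZ and 26.0, 26.7, 21.1 and 17.3 TPM in IV_AZ_si (log2 fold change -1.20 ± 0.27, SE; adjusted p = 0.001, edgeR). Aa_G457970.h1 had 17.02, 19.7 and 20.3 TPM in IV_PZ and 31.7, 44.6, 45.2 and 32.3 TPM in IV_AZ_si (log2 fold change -0.97 ± 0.21, SE; adjusted p = 0.000807, edgeR). In both, all annual libraries were above all libraries of the perennial zone. At 7 weeks they held 12.2 to 14.4 TPM and 28.7 to 37.4 TPM in the perennial zone.

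Set against the 7-week perennial zone, the short annual internode held less of many members. Of the 145 tested, 54 were lower in IV_AZ_si than in III_PZ, 8 were higher and 83 were not called. Of all tested targets 45.9% were called, 22.8% higher and 23.1% lower. The median log2 fold change was -0.23 over the members and 0.00 over all tested targets. Of those called, 28 members were lower and 1 was higher at least 2-fold, against 2673 and 2155 of the 23904 tested targets. Without III_PZ replicate 2, 5 members were called higher.

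Aa_G559280.h1 and Aa_G731640.h1 differed most. Their log2 fold changes were -4.84 ± 0.68 (SE; adjusted p = 2.1e-05, edgeR) and -4.59 ± 0.96 (SE; adjusted p = 0.00182, edgeR), or -6.08 and -7.13 without IV_AZ_si replicate 2. III_PZ held 571, 537 and 586 TPM of Aa_G731640.h1, far above the 81.2 TPM of the highest annual library. Aa_G363510.h1, which shares reads, was higher in the annual internode, at 12.4, 12.4, 12.4 and 8.11 TPM against 5.38, 5.21 and 6.28 TPM in III_PZ (log2 fold change 1.02 ± 0.17, SE; adjusted p = 0.000112, edgeR). Aa_G396640.h1 had 209, 274, 298 and 229 TPM in IV_AZ_si and 144, 154 and 129 TPM in III_PZ (log2 fold change 0.85 ± 0.17, SE; adjusted p = 0.000554, edgeR). Its IV_PZ libraries were higher again, at 523, 491 and 574 TPM. In the low groups it still had 41.8 to 74.7 TPM.

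By the highest mean CPM, IV_PZ led in 101 of the 150 members, III_PZ in 39 and IV_AZ_si in 10. Over all tested targets these shares were 39% for IV_PZ, 34.3% for III_PZ and 26.6% for IV_AZ_si. IV_AZ_si was the lowest of the high groups in 101 members (67.3%), against 34.4% of all tested targets. By mean TPM, IV_PZ was highest in 95 members and IV_AZ_si lowest in 94.

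**Figure D4:**
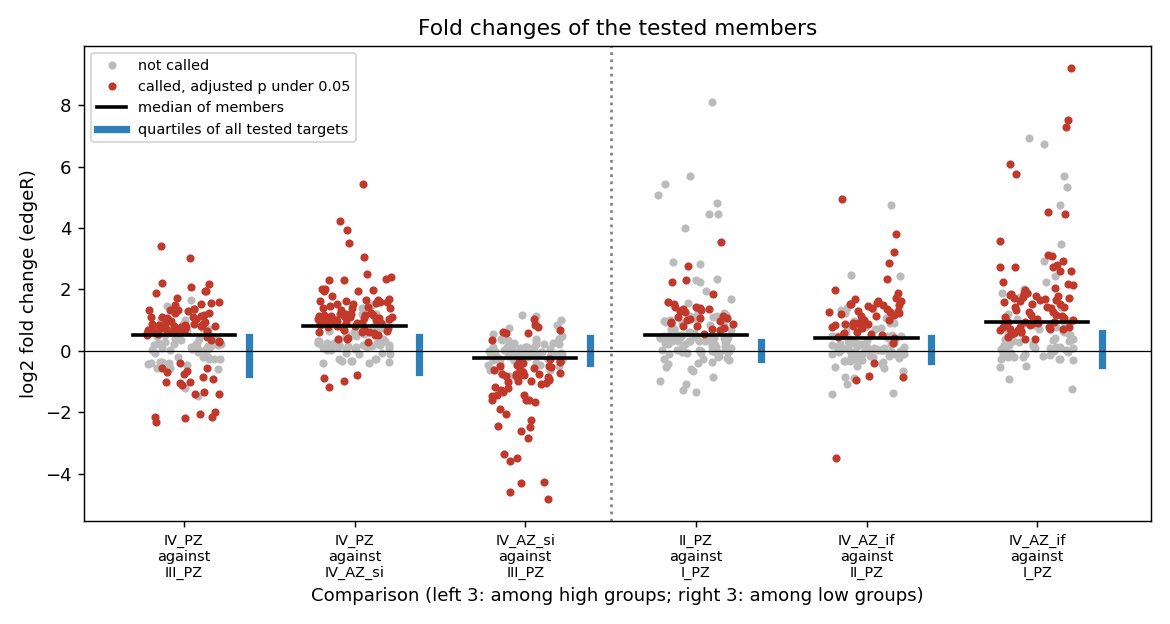
Log2 fold changes of the 145 tested members in the 6 comparisons (points, red where called), with the median of the members (black) and the quartiles of all tested targets (blue). The median of the members is 0.50, 0.82 and -0.23 in the comparisons among high groups and 0.51, 0.41 and 0.92 in those among low groups, where fitted values of members with no count in a group depend on the prior count.

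The low groups also differed. Some members rose between 4 and 5 weeks, ahead of the step to 7 weeks that the rule used. Of the 145 tested, 31 were higher and 0 lower in II_PZ than in I_PZ, and 114 were not called. DESeq2 also called 0 lower and 49 higher, but it called more over all targets too. There it gave 2415 higher and 1744 lower, against 1982 and 1432 in edgeR. The edgeR background was 14.3% called, 8.29% higher and 5.99% lower. The median log2 fold change was 0.51 over the members and 0 over all tested targets. Of the members, 7 had no count in I_PZ and over 3 counts in II_PZ. With these at their lower bound the median was also 0.51. With I_PZ replicate 3 in the fit, 14 were higher and 2 lower, and without I_PZ replicate 1 or replicate 2, which leaves 1 library assumed to vary like the other groups, 17 and 16 were higher and none lower. Without II_PZ replicate 3, 21 were higher and 1 lower, and with only the groups compared in the fit 26 were higher and 2 lower.

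Aa_G457970.h1 rose from 0.393 and 0.157 TPM in I_PZ to 1.54, 1.04 and 2.81 TPM in II_PZ (log2 fold change 2.77 ± 0.50, SE; adjusted p = 0.00157, edgeR). The log2 fold change was 3.53 without I_PZ replicate 1 and 0.79 with I_PZ replicate 3, where the call was lost (adjusted p = 0.406). Its 15 alternatives gave an adjusted p of 6.23e-07 to 0.406. Aa_G486790.h1 had 0.168 and 0.302 TPM in I_PZ and 0.520, 1.00 and 1.93 TPM in II_PZ (log2 fold change 2.32 ± 0.56, SE; adjusted p = 0.0103, edgeR). This call was lost with I_PZ replicate 3 in the fit (log2 fold change 1.00; adjusted p = 0.247), without I_PZ replicate 1 or 2 (adjusted p = 0.121 and 0.0639), without II_PZ replicate 3 (log2 fold change 1.71; adjusted p = 0.0616), with only the 2 groups fitted (adjusted p = 0.0644) and in limma-trend on log2(TPM + 1), with and without its filter (adjusted p = 0.0762 and 0.0958). Its 15 alternatives gave 0.000113 to 0.247. Both targets were also higher in IV_AZ_si than in IV_PZ, as described above, and II_PZ replicate 3 was their highest 5-week library.

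The internode beside the inflorescence, at 30 weeks, held more of many members than the young perennial zone. Against II_PZ, 47 members were higher in IV_AZ_if, 5 lower and 93 not called. Over all tested targets 38.6% were called, 21% higher and 17.7% lower, and the median log2 fold change was 0.41 over the members and 0.04 over all tested targets. Without IV_AZ_if replicate 2, 34 were higher and 10 lower; without II_PZ replicate 3 or IV_AZ_if replicate 3, 2 were lower, and without IV_AZ_if replicate 1, 3 were lower. With I_PZ replicate 3 in the fit 30 were higher and 5 lower, and with only the groups compared 31 and 4.

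Aa_G404810.h1, which shares reads, had 0.0689, 0.0309 and 0.0959 TPM in II_PZ and 1.47, 1.06 and 3.68 TPM in IV_AZ_if (log2 fold change 4.93 ± 0.97, SE; adjusted p = 0.000654, edgeR), or 4.24 without IV_AZ_if replicate 3. Its high groups differed widely, with 8.72 to 11.7 TPM in III_PZ and 40.2 to 44.9 TPM in IV_PZ. Aa_G276850.h1, which also shares reads, had 0.163, 0.0495 and 0.149 TPM in II_PZ and 1.56, 3.01 and 0.447 TPM in IV_AZ_if (log2 fold change 3.80 ± 0.60, SE; adjusted p = 0.00012, edgeR), or 3.03 without IV_AZ_if replicate 2. In both, the groups did not overlap, as the choice of named targets required.

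In the other direction, Aa_G730580.h1 had 2.65, 0.888 and 5.03 TPM in II_PZ and 0, 0.665 and 0.0308 TPM in IV_AZ_if (log2 fold change -3.48 ± 1.16, SE; adjusted p = 0.0243, edgeR). Its log2 fold change was -7.29 without IV_AZ_if replicate 2, which held 26 of its 27 counts there. The call was lost without II_PZ replicate 3 (log2 fold change -2.75; adjusted p = 0.125), without IV_AZ_if replicate 1 or 3 (adjusted p = 0.0835 and 0.0766), with I_PZ replicate 3 in the fit (adjusted p = 0.0951) and in limma-trend on log2(TPM + 1) with and without its filter (adjusted p = 0.0509 and 0.0658). Its 16 alternatives gave 0.00311 to 0.125. Aa_G476250.h1, which shares reads, had 35.8, 35.0 and 53.3 TPM in II_PZ and 28.1, 25.7 and 15.9 TPM in IV_AZ_if (log2 fold change -0.85 ± 0.20, SE; adjusted p = 0.0029, edgeR), with the groups apart. The other 3 members called lower, named after their values were seen, were Aa_G624580.h1 (log2 fold change -0.95), Aa_G582060.h1 (-0.84) and Aa_G519820.h1 (-0.40).

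Against I_PZ, 78 members were higher in IV_AZ_if and 0 lower, and 67 were not called. DESeq2 called 87 higher and 0 lower. Over all targets it called 6068 higher and 5300 lower, against 5964 and 5168 in edgeR. The edgeR background was 46.6% called, 24.9% higher and 21.6% lower. The median log2 fold change was 0.92 over the members and 0.04 over all tested targets. Of the members, 8 had no count in I_PZ and over 3 counts in IV_AZ_if. With these at their lower bound the median was also 0.92. With I_PZ replicate 3 in the fit 44 were higher and 11 lower, without IV_AZ_if replicate 2 69 were higher and 2 lower, and with only the groups compared 68 and 1. Aa_G276850.h1 had no count in I_PZ replicates 1 and 2 and was at least 47.1-fold higher in IV_AZ_if (3 counts over I_PZ were set as the floor), or at least 26.8-fold without IV_AZ_if replicate 2. Aa_G381700.h1 had no count there either and 3.75, 2.01 and 1.97 TPM in IV_AZ_if, at least 11.8-fold higher. I_PZ replicate 3 held 2.20 and 4.08 TPM of these targets, and with it in the fit both calls were lost (adjusted p = 0.205 and 0.364, edgeR). The 15 alternatives of each gave 5.74e-08 to 0.205 and 3.37e-05 to 0.364. Leaving out I_PZ replicate 1 or 2 lowers both bounds, to 24.9 and 22.2 for Aa_G276850.h1 and 6.27 and 5.57 for Aa_G381700.h1, through the smaller depth.

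I_PZ replicate 3, which the rule did not read, held the members at levels between its group mates and III_PZ. Their summed TPM was 2589 in it, against 1119 and 1147 in replicates 1 and 2. In CPM, 131 of the 150 members (87.3%) were higher in replicate 3 than in both mates and 7 were lower than in both, whereas 37.9% of all tested targets were higher than in both. Replicate 3 was left out of the rule because it held III_PZ transcripts, and members had to be high in III_PZ and low in its mates. An excess of the members in it was therefore partly built in, and the share of all tested targets is not a like reference. Of the 11 members with no count in replicates 1 and 2, 10 had a count in replicate 3. Aa_G412940.h1 had 186 TPM in it against 0.259 and 0.233 TPM, Aa_G412970.h1 had 204 TPM, and Aa_G415500.h1 had 126 TPM against no count. The excess of replicate 3 over the mean of its mates came to a median of 10.5% of the difference between III_PZ and I_PZ, with quartiles of 8.36% and 12.8%. The source of these transcripts in replicate 3 was not tested.

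**Figure D5:**
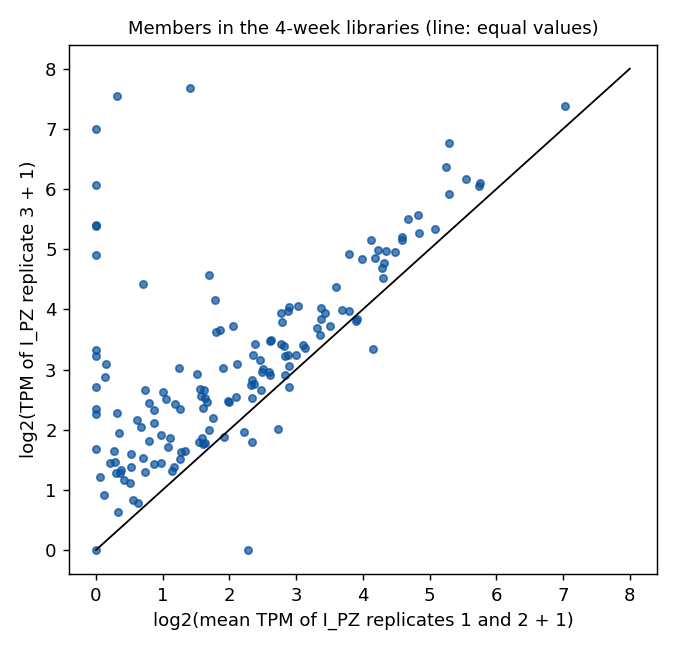
TPM of each member in I_PZ replicate 3 against the mean of I_PZ replicates 1 and 2, both on the log2(TPM + 1) scale; the line marks equal values. Most points lie above the line, and the column of points at 0 on the horizontal axis holds the 11 members with no count in replicates 1 and 2.

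Single libraries also led within other groups. IV_AZ_si replicate 2 was the highest of its group in CPM for 99 of the 150 members (66%), against 33.9% of all tested targets, II_PZ replicate 3 for 92 (61.3%, against 36.1%) and IV_AZ_if replicate 2 for 84 (56%, against 31.2%). The imbalance was smaller in IV_PZ, where replicate 2 led in 68 members (45.3%, against 35.5%). In III_PZ no library led in more than 60 members (40%, against 36.5%, in replicate 2). The members varied more between replicates than other targets in the low groups and in IV_AZ_si, and less in III_PZ and IV_PZ. The median coefficient of variation of TPM was 28% over the members and 14.1% over all tested targets in II_PZ, 25.8% and 13.8% in IV_AZ_if, and 19.4% and 13.7% in IV_AZ_si. In III_PZ it was 9.3% and 10.7%, and in IV_PZ 11.7% and 13.1%. These differences in spread were not tested. The rule kept the members low in the low groups, where many rest on few counts, and set a minimum level in the high groups. All tested targets had no such limits on level, so the 2 sets are not alike in abundance. Without IV_AZ_si replicate 2, 144 targets met the rule, 131 of the 150 members among them. Those lost included the members with the widest gaps, Aa_G412940.h1, Aa_G415500.h1, Aa_G412970.h1 and Aa_G731640.h1, as well as Aa_G559280.h1. In Aa_G731640.h1 the mean of IV_AZ_si then fell under 5 TPM. In the others the widest gap then lay above IV_AZ_si, by a narrow margin in Aa_G412970.h1.

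The edge of the list was not sharp. The last members by width of the gap were Aa_G753440.h1 and Aa_G540530.h1, with gaps of 1.05 and 1.04. Aa_G540530.h1 had 9.78, 11.3 and 9.88 TPM in III_PZ, 10.1, 7.10 and 11.2 TPM in IV_PZ and 7.88, 12.7, 8.75 and 8.36 TPM in IV_AZ_si, against 2.86 to 4.82 TPM in the 8 low-side libraries. Aa_G753440.h1 had 8.96, 25.8 and 9.01 TPM in III_PZ and 13.1 TPM in II_PZ replicate 3, so that its high and low groups overlapped. The next targets in line, Aa_G35400.h1 and Aa_G95150.h1, also had gaps of 1.04, with means of 18.4 to 33.3 TPM and 26.1 to 35.8 TPM in the high groups.

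The median coding length was 768 bases over the members (quartiles 445 and 1290.0) and 963 bases over the whole series table (quartiles 501 and 1509). Of the members, 29 (19.3%) shared reads with other targets in some library, as did 21.3% of all targets, and no pair of members had identical counts in all libraries.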

How the data were processed

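The tools named in the submitters' processing notes are kallisto and bcl2fastq. Their versions, the transcript reference and any genome build were not given in the sources used here. The authors deposited, per the file headers, an estimated count, a TPM value and a length for each of 34220 targets per library, and a TPM table of 30158 of them, whose values equal those of the library files (largest difference 0). Lengths are coding lengths, since 99.5% are multiples of 3.

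The members, comparisons and lists were chosen with earlier results of these data known. Estimated counts were rounded and tested in edgeR 4.0.16 (R 4.3.3), scaled by TMM and filtered by filterByExpr (minimum count 10, minimum total 15), in 1 fit of 18 libraries with the group as the only term, without I_PZ replicate 3. Standard errors came from the test statistic. The test was checked on simulated data. CPM here is the count scaled to the library total, before TMM scaling. Targets were named by rule: in each comparison the 2 highest and 2 lowest called members by fold, without overlap of libraries in CPM and with a mean of at least 5 TPM (high groups) or 1 TPM (low groups) in the higher group; the 2 widest gaps; the 2 most abundant; and the 2 on each side of the list's edge. Gene lists drawn up for named genes could not be matched and were not used.

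A target shares reads if a count lay further than 0.001 from a whole number. Depth sets the floor of 3 counts over a group, and bounds cover counting error only. Replicates differed by more than sampling noise (chi-square per degree of freedom at least 3.7), so each counted as 1 sample. Alternatives were RLE and TPM-scale size factors, a fit in DESeq2 1.42.0, a fit of just the 2 groups compared, one without the filter, one with a replicate block, limma-trend from limma 3.58.1 with log2(TPM + 1) with and without a filter of 1 TPM in 3 libraries and on log2(TPM + 0.1), all 19 libraries, and each replicate left out.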

Additional observations from a re-analysis of the deposited data

Results flagged for a closer look

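I_PZ replicate 3, outside the rule and the main tests, held 2589 summed TPM of the members (2588.7), above the 1119 and 1147 of its group mates. In IV_AZ_si, the only group of 4, the extreme library was compared with its neighbour for the named members and the summed TPM. Of 20 values, 5 stood apart. Chance gives about 5% of groups if values are normally distributed, which was not checked, and TPM was compared without a log scale. The members also share these libraries, so the 5 values do not measure an excess over chance. Replicate 2 was far above its mates for Aa_G731640.h1 (81.2 TPM), Aa_G412940.h1 (524 TPM), Aa_G415500.h1 (178 TPM) and Aa_G412970.h1 (857 TPM). Replicate 4 was below the others for Aa_G363510.h1 (8.11 TPM). Over all members, 15 were at least 2-fold above the mean of the other replicates in IV_AZ_si replicate 2, on the log2(TPM + 1) scale. This count was added after the values were seen, and it was not particular to that library. It was 53 in I_PZ replicate 3, 18 in IV_AZ_if replicate 2 and 0 to 9 in the remaining libraries. The share over all tested targets was not computed.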

How the results depend on the processing

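The count of members called in II_PZ against I_PZ depended most on the setting: 31 as reported, 49 in DESeq2, 16 with all 19 libraries, and 16 to 40 with a replicate left out. In the other 5 comparisons the count stayed within 1.5 times of the reported one under every alternative run. All 19 libraries lowered the members called lower in IV_PZ than in III_PZ from 21 to 10. The 20 results for named members kept their direction under all 322 alternatives run and lost the call in 19; DESeq2 gave no adjusted p for Aa_G559280.h1 in either comparison with III_PZ. The number of targets meeting the rule ran from 144 to 194, but the list itself changed more than this total shows. Of the 150 members, 127 still met the rule with group medians, 134 with log2(mean + 0.1) and 135 with all 3 I_PZ replicates. With a replicate left out, 131 to 149 did. The summed TPM in I_PZ replicate 3 was 1759 for members without shared reads, against 2589 for all. Same-numbered libraries did not deviate together (correlations of -0.10 to 0.04; 4 of 24 libraries checked were best matched by their own number), so replicate numbers do not pair them; with the replicate block 81, 79, 59, 31, 52 and 78 members were called, in the order of the report, against 82, 87, 62, 31, 52 and 78. Depth limits the short targets and the low groups, where many members rest on few counts.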
